A study of Rattus norvegicus with 14 samples.

Results

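The 9 genes described here encode serpins that hepatocytes secrete into plasma: Serpina1, Serpina3c, Serpina3n, Serpina4, Serpina6, Serpina7, Serpinc1, Serpinf1 and Serpinf2. They were chosen by name, with earlier results of these data known, and so were the gene lists used below. Probe sets were kept if their only gene symbol was that of a member. Each of the 9 had 1 probe set, among 14497 genes measured. Transcript levels came from 1-colour Affymetrix Rat Gene ST 1.0 arrays of liver regions isolated by laser capture from fixed, paraffin-embedded sections of male F344 rats, an inbred strain. There were 4 groups of 3 animals. Both rapamycin foci and placebo foci were made by the Solt-Farber protocol, a chemical model of liver carcinogenesis: diethylnitrosamine at 200 mg/kg on day 1, a 2.5 mg pellet of 2-acetylaminofluorene (AAF) with 14-day release on day 14, and partial hepatectomy on day 21. A 21-day pellet, of rapamycin at 2.5 mg/kg per day or of placebo, was placed at the hepatectomy, and the lesions were captured on day 70. Captured lesions were persistent foci that stained for GSTP, the placental glutathione S-transferase that marks preneoplastic hepatocytes. AAF/PH liver, in which oval cells (liver progenitor cells) proliferate, came from rats that received the same pellet on day 1, lost part of the liver by hepatectomy on day 7 and were killed on day 14, without diethylnitrosamine. Normal liver came from unmanipulated adults. Rapamycin, an inhibitor of the growth-controlling kinase mTOR, had thus been released for part of the interval before capture, and the comparison of both kinds of foci asks whether an effect persisted.

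Most serpins are suicide inhibitors: a protease cuts the exposed reactive loop, the loop inserts into the body of the serpin, and the protease stays trapped. Some members of the family have lost this activity and carry hormones or act as signals. Hepatocytes are the main source of the plasma serpins, and several of their genes are read by the liver factors HNF1 and C/EBP, by STAT3 in the acute phase response, or by STAT5 under growth hormone. Among the genes described, antithrombin (Serpinc1) checks thrombin and factor Xa, and alpha-2-antiplasmin (Serpinf2) checks plasmin. Serpina4 encodes kallistatin, known in humans as an inhibitor of tissue kallikrein, and Serpina3c the rat kallikrein-binding protein, a growth hormone-responsive serpin. Alpha-1-antitrypsin (Serpina1) checks neutrophil elastase, and Serpina3n is an acute phase serpin related to antichymotrypsin. Corticosteroid-binding globulin (Serpina6) and thyroxine-binding globulin (Serpina7) carry hormones, and pigment epithelium-derived factor (Serpinf1) is an anti-angiogenic factor.

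A set of clade A genes from the same cluster with unlike patterns are shown by their promoters, 300 bases each, from 250 before to 50 after the RefSeq start (assembly GRCr8, strand of the gene). Serpina4 (chr6:128764532-128764831, plus strand) was lower than in normal liver in all 3 other groups, Serpina3n (chr6:129088142-129088441, plus strand) stood lowest in placebo foci, and Serpina1 (chr6:128653076-128653375, minus strand) passed no test. Capitals mark matches to motifs searched on both strands: TTGCNNAA for C/EBP, TTCNNNGAA for STAT factors, GTTAAT for HNF1 and its longer form GTTAATNAT, which contains GTTAAT.
Serpina4: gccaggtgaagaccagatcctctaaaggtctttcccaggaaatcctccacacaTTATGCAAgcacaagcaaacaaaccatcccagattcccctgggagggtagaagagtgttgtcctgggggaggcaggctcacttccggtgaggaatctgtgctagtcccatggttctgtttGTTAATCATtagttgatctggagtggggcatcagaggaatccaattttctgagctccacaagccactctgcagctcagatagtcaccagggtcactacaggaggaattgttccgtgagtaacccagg
Serpina3n: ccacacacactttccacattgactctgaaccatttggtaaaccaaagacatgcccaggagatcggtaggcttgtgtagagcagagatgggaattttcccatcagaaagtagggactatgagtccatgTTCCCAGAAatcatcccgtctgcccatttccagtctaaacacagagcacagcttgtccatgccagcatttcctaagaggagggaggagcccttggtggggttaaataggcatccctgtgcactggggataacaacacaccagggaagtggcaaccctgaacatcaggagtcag
Serpina1: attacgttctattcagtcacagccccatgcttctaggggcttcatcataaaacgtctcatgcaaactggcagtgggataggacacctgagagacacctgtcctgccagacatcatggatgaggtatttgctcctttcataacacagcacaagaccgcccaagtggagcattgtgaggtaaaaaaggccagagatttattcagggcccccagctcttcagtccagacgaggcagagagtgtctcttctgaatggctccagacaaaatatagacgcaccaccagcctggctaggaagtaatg
In Serpina4 the first capitals, at bases -197 to -190 from the start, match the C/EBP letters on the reverse strand, and the next, at -77 to -69, match the longer HNF1 letters. The capitals in Serpina3n, at -123 to -115, match the STAT letters, which read the same on both strands. Serpina1 held none of these letters in this window, and sequence outside it or at any other start of the gene was not searched. Promoter sequence was given for 7 of the 9 genes. Among 33469 RefSeq promoters of the same length, 7.45% held GTTAAT, 0.747% held GTTAATNAT, 8.87% held TTCNNNGAA and 10.6% held TTGCNNAA. Among the 7, GTTAAT occurred in 2 (Serpina4 and Serpina7), the longer form in Serpina4, TTCNNNGAA in Serpina3n and TTGCNNAA in 3 (Serpina4, Serpina7 and Serpinc1).

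The 14 arrays had median intensities between 19.84 and 25.37. The library of rapamycin animal 3 stood apart: the interquartile range of log2 intensity was 1.57 to 1.71 on its 3 arrays and 1.98 to 2.80 on the 11 others. Those 3 arrays (a pair on the same RNA, the last on a new capture) correlated with each other at 0.97 over genes and were averaged as 1 animal. For all 9 serpins each of the 3 arrays read below both other rapamycin animals. The share of all genes that did so was not counted, so this does not set the serpins apart from other genes. Results that rest on this animal are therefore also given without it. As a check of the tissue label, the summed intensity of 10 hepatocyte markers (Alb and Apoa1 among them) was 14839 to 25999 in rapamycin foci, 17784 to 21078 in placebo foci, 15877 to 17175 in AAF/PH liver and 26559.8 to 29637 in normal liver. The sum was thus large in every group and highest in normal liver. Not every marker followed the sum: Apoa1 had a higher mean in both kinds of foci than in normal liver, without a call.

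All 9 serpins had their highest mean in normal liver, although scaling on hepatocyte markers turned the sign of some differences of Serpina1, Serpina3n, Serpina7 and Serpinf1, and the interquartile range as a covariate that of Serpina7 and Serpinf1 in rapamycin foci. AAF/PH liver had the lowest mean for 6 of them, and placebo foci for the other 3 (Serpina1, Serpina3n and Serpina6). How many of all genes had their highest or lowest mean in each group was not counted. Against normal liver, 55.4% of all genes had a positive difference in rapamycin foci, 54.5% in placebo foci and 59.6% in AAF/PH liver. A gene was called at a Benjamini-Hochberg adjusted p under 0.05 in 1 limma fit over all genes. In rapamycin foci 4 of the 9 were lower than in normal liver and 0 higher, where 4.93% of all genes were called lower and 1.6% higher. In placebo foci 5 were lower and 0 higher, where the shares of all genes were 5.38% and 2.84%. In AAF/PH liver 6 were lower and 0 higher, where the shares were 12.5% and 7.54%. The median log2 difference of the 9 was -0.85 in rapamycin foci, -1.17 in placebo foci and -1.73 in AAF/PH liver, beside medians over all genes of 0.07, 0.04 and 0.12. These 3 comparisons share the normal liver animals, so their directions are not independent. In tissue captured in bulk, fewer cells of a type and less RNA per cell cannot be told apart, and the hepatocyte marker sums above moved in the same direction.

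**Figure D1:**
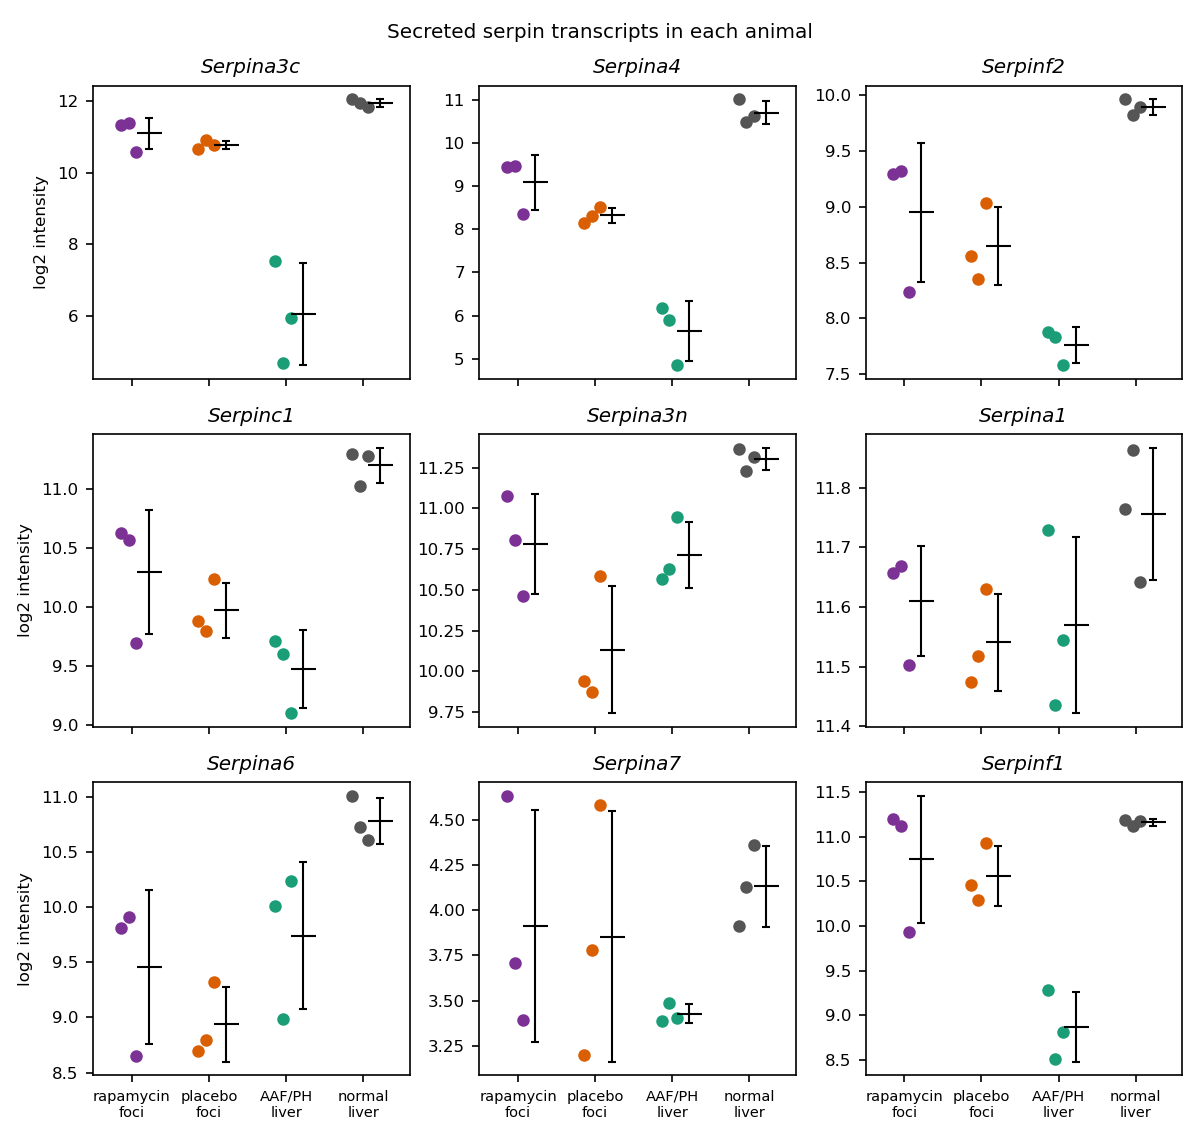
Log2 intensity of the 9 serpins in each animal (points) with the group mean and SD (bars, 3 animals per group), in rapamycin foci, placebo foci, AAF/PH liver and normal liver. Each panel has its own scale: Serpina3c and Serpina4 span several log2 units and Serpina1 under 1, and rapamycin animal 3 is the low point of its group throughout.

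The kallikrein-binding serpins Serpina3c and Serpina4 had the largest differences of the 9, and both were found in AAF/PH liver. Serpina3c (probe set 10891991) had intensities of 2551, 2652 and 1531 in rapamycin foci, 1608, 1904 and 1735 in placebo foci, 187, 25.7 and 61.6 in AAF/PH liver, and 4208, 3949 and 3653 in normal liver. No AAF/PH animal reached the level of any other animal, and the AAF/PH animals also differed most among themselves. Against normal liver the mean was 59.0-fold lower in AAF/PH liver (log2 difference -5.88 ± 0.48, SE of the fit; adjusted p = 1.8e-06). The foci stood far above AAF/PH liver and below normal liver, with no overlap on either side. Their differences from normal liver did not pass in the fit over all 4 groups, at -0.85 ± 0.48 in rapamycin foci (adjusted p = 0.258) and -1.17 ± 0.48 in placebo foci (adjusted p = 0.18). The fit shares 1 estimate of the spread over the groups: for placebo foci the adjusted p was 0.0258 without AAF/PH animal 1, 0.0478 without AAF/PH animal 2 and 9.33e-05 when only placebo and normal animals were fitted.

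Serpina4 (probe set 10886582) read 689.7, 711 and 326 in rapamycin foci, 285, 315 and 363 in placebo foci, 72.1, 59.7 and 28.9 in AAF/PH liver, and 2059.9, 1429.7 and 1564 in normal liver. Normal liver lay above every other animal and AAF/PH liver below every other animal, while both kinds of foci lay between and overlapped each other. It was called in all 3 groups against normal liver, as were Serpinc1, Serpinf2 and Serpina6 below. The log2 difference was -1.62 ± 0.34 in rapamycin foci (adjusted p = 0.0119), -2.38 ± 0.34 in placebo foci (adjusted p = 0.000473) and -5.06 ± 0.34 in AAF/PH liver (adjusted p = 3.38e-07, 33.3-fold lower). The rapamycin difference was -1.46 (adjusted p = 0.0821) without normal liver animal 1 and -1.25 (adjusted p = 0.00936) without rapamycin animal 3.

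Antithrombin and antiplasmin, which check the formation and the removal of fibrin clots, were both lower in all 3 groups. Serpinc1 (probe set 10765019) stood at 1586, 1517 and 829 in rapamycin foci, 944, 889 and 1206 in placebo foci, 841, 779 and 548 in AAF/PH liver, and 2509, 2088 and 2493 in normal liver. Every normal liver animal exceeded every other animal. The log2 difference from normal liver was -0.90 ± 0.25 in rapamycin foci (adjusted p = 0.0451), -1.23 ± 0.25 in placebo foci (adjusted p = 0.00626) and -1.73 ± 0.25 in AAF/PH liver (adjusted p = 0.00023). Serpinf2 (probe set 10744947) read 629, 640.3 and 301 in rapamycin foci, 377, 327 and 526 in placebo foci, 235, 228 and 191 in AAF/PH liver, and 999, 908 and 951 in normal liver. Here too normal liver was highest without overlap, and AAF/PH liver was lowest without overlap. The difference was -0.94 ± 0.26 in rapamycin foci (adjusted p = 0.0477), -1.25 ± 0.26 in placebo foci (adjusted p = 0.00809) and -2.13 ± 0.26 in AAF/PH liver (adjusted p = 6.79e-05). Both rapamycin calls were lost without rapamycin animal 3, with -0.60 (adjusted p = 0.0934) for Serpinc1 and -0.58 (adjusted p = 0.0907) for Serpinf2, and without any 1 of the normal liver animals (adjusted p from 0.06 to 0.187). They were lost as well without placebo animal 1 or 2 or AAF/PH animal 1 or 2, and that of Serpinf2 without AAF/PH animal 3 (adjusted p from 0.058 to 0.0694), where only the shared spread and the adjustment can move.

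The acute phase and elastase inhibitors had 1 call between them, that of Serpina3n in placebo foci. Serpina3n (probe set 10886621) had intensities of 2158, 1791 and 1409.8 in rapamycin foci, 983, 939 and 1536 in placebo foci, 1519, 1585 and 1974 in AAF/PH liver, and 2639, 2403 and 2554 in normal liver. Normal liver exceeded every other animal, and in contrast to Serpina3c it was placebo foci, not AAF/PH liver, that stood lowest, with placebo animals 1 and 2 below all others. The call was made in placebo foci (log2 difference -1.17 ± 0.22, adjusted p = 0.00355), and not in rapamycin foci (-0.52 ± 0.22, adjusted p = 0.15) or AAF/PH liver (-0.59 ± 0.22, adjusted p = 0.0697). AAF/PH liver passed without placebo animal 3 (adjusted p = 0.0417) and without rapamycin animal 3 (adjusted p = 0.0212), with the same difference. Serpina1 (probe set 10891949) ranged from 2903 to 3255 in rapamycin foci, from 2846 to 3171 in placebo foci, from 2771 to 3393 in AAF/PH liver and from 3196 to 3726 in normal liver. Its ranges overlapped in all pairs of groups but placebo foci and normal liver, and it passed in none of the 6 comparisons. Its log2 difference from normal liver was -0.15 in rapamycin foci (95% interval -0.48 to 0.19), -0.22 in placebo foci (-0.55 to 0.12) and -0.19 in AAF/PH liver (-0.52 to 0.15). The intervals thus reach no fall as large as those of Serpina4, and do not show that the level was the same.

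Of the hormone carriers, Serpina6 was lower in all 3 groups and Serpina7 passed nowhere. Serpina6 (probe set 10891922) read 901, 963 and 402 in rapamycin foci, 415, 443 and 641 in placebo foci, 1030.2, 507 and 1207 in AAF/PH liver, and 2069, 1704 and 1563 in normal liver. All normal animals stood above all others, and the 3 other groups overlapped one another. The log2 difference was -1.33 ± 0.35 in rapamycin foci (adjusted p = 0.0355), -1.85 ± 0.35 in placebo foci (adjusted p = 0.00388) and -1.04 ± 0.35 in AAF/PH liver (adjusted p = 0.0478). The AAF/PH value rested on animal 2, without which it was -0.66 (adjusted p = 0.227), and the rapamycin call was lost without rapamycin animal 3 (-0.92, adjusted p = 0.06). Both calls were also lost without any 1 normal liver animal (adjusted p from 0.0668 to 0.173), without AAF/PH animal 1 (0.0509 to 0.0677) and without placebo animal 1 or 2 (0.0522 to 0.0626). Over 24 alternative settings each of these calls was lost in 13, and the AAF/PH difference of Serpina6 ran from -1.29 to -0.33. Serpina7 (probe set 10939467) ranged from 10.5 to 24.9 in rapamycin foci, from 9.19 to 24.0 in placebo foci, from 10.5 to 11.2 in AAF/PH liver and from 15.1 to 20.5 in normal liver. No detection call was used here, and these intensities lay around or below the median of all probe sets on the arrays. Its largest difference from normal liver was that of AAF/PH liver, -0.71 ± 0.33 (adjusted p = 0.139), the one group that did not overlap normal liver.

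Serpinf1 separated AAF/PH liver from all other tissue. It (probe set 10744939) stood at 2347, 2225 and 974 in rapamycin foci, 1409.7, 1249 and 1954 in placebo foci, 623, 364 and 450.1 in AAF/PH liver, and 2339, 2224 and 2306 in normal liver. Rapamycin animals 1 and 2 lay within or above the range of normal liver, and animal 3 lay below every placebo animal. AAF/PH liver was 4.90-fold lower than normal liver (log2 difference -2.29 ± 0.30, adjusted p = 0.00011). The foci did not pass, at -0.41 ± 0.30 in rapamycin foci (adjusted p = 0.366) and -0.60 ± 0.30 in placebo foci (adjusted p = 0.287). Without rapamycin animal 3 the first of these was -0.0026 and the second, unchanged at -0.60, passed (adjusted p = 0.0433). Serpinf1 and Serpinf2 lie side by side on chromosome 10 in the RefSeq annotation, with 0 protein-coding genes between them. In placebo foci the interval of Serpinf1 (-1.25 to 0.05) overlapped that of Serpinf2 (-1.81 to -0.68), and the difference between these genes was not tested.

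**Figure D2:**
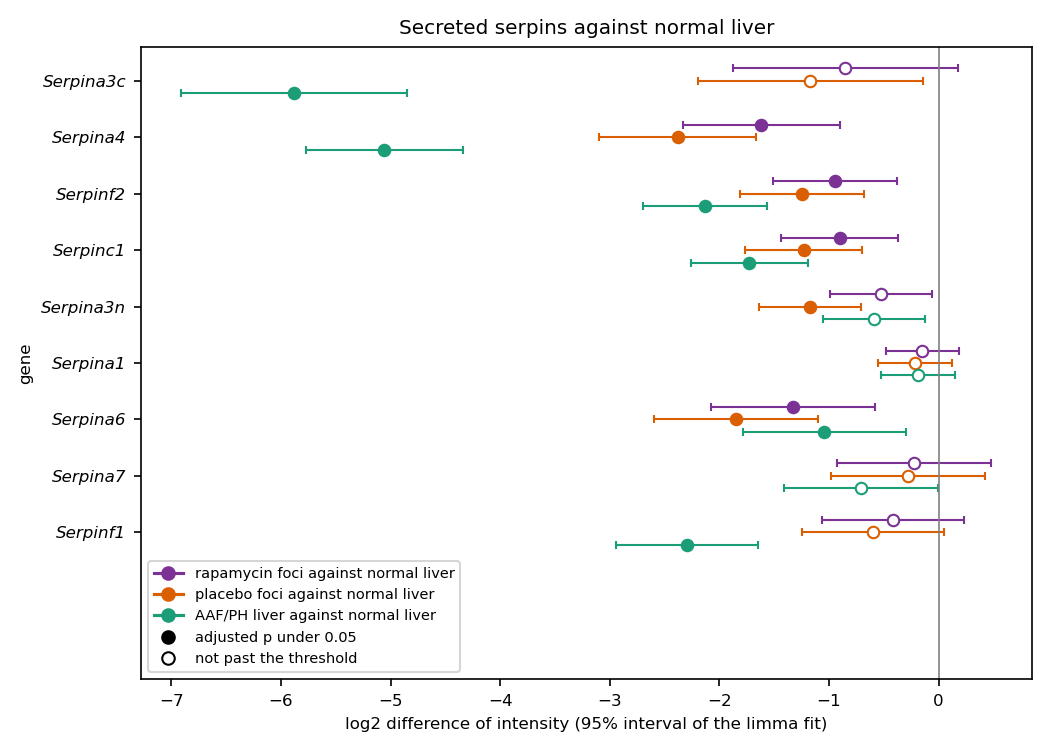
Log2 difference from normal liver of each serpin in rapamycin foci, placebo foci and AAF/PH liver, with the 95% interval of the limma fit; filled points passed at an adjusted p under 0.05. Every point lies left of 0 (some of Serpina1, Serpina3n, Serpina7 and Serpinf1 do not after hepatocyte marker scaling), Serpina3c and Serpina4 in AAF/PH liver lie beyond -5, and the 3 points of Serpina1 lie within 0.22 of 0.

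The foci were also set against AAF/PH liver, the other tissue exposed to AAF and hepatectomy, although sampled at a shorter interval, and both comparisons share the AAF/PH animals. Rapamycin foci were higher in 4 of the 9 and lower in 0, where 2.14% of all genes were called higher and 1.87% lower. Placebo foci were higher in 3 and lower in 0, where the shares were 2.62% and 1.57%. Serpina3c was higher by 5.03 ± 0.48 in rapamycin foci (adjusted p = 4.22e-05) and by 4.71 ± 0.48 in placebo foci (adjusted p = 4.82e-05). Serpina4 was higher by 3.44 ± 0.34 in rapamycin foci (adjusted p = 4.62e-05) and by 2.68 ± 0.34 in placebo foci (adjusted p = 0.000257). Serpinf1 was higher by 1.88 ± 0.30 and 1.69 ± 0.30 in rapamycin and placebo foci (adjusted p = 0.00193 and 0.00421). Serpinf2 passed in rapamycin foci (1.19 ± 0.26, adjusted p = 0.0192) but not in placebo foci (0.89 ± 0.26, adjusted p = 0.083), and the rapamycin call was lost without rapamycin animal 1 or 2 or without AAF/PH animal 2 or 3 (adjusted p from 0.0584 to 0.103). Serpina6 and Serpina3n had negative values in placebo foci, -0.81 and -0.58, and did not pass (adjusted p = 0.277 and 0.187). Without rapamycin animal 3, Serpinc1 also passed in rapamycin foci (1.13, adjusted p = 0.000726), and 5 of the 9 passed in placebo foci, with Serpina6 the lower 1 (adjusted p = 0.0445). For placebo foci the differences stayed the same, and only the shared spread and the adjustment could move. The share of all genes called without that animal is not given here.

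Rapamycin foci had a higher mean than placebo foci for all 9 serpins, and none passed; the sign turned for Serpina1, Serpina7 and Serpinf1 under hepatocyte marker scaling, and for Serpina7 also under quantile normalization and median centring. Limma called 0 of 14497 genes in this comparison, 0% of those tested, with 483 at an unadjusted p under 0.05. Serpina3n (log2 difference 0.65 ± 0.22, 95% interval 0.18 to 1.11, unadjusted p = 0.00975, adjusted p = 0.985) and Serpina4 (0.76 ± 0.34, 0.05 to 1.48, unadjusted p = 0.0383, adjusted p = 0.985) were the 2 of 9 under that unadjusted threshold. The median of the 9 was 0.32, beside 0.01 over all genes, and 52.1% of all genes had a positive difference. Without rapamycin animal 3 the differences were 0.81 for Serpina3n (adjusted p = 0.241), 1.13 for Serpina4 (adjusted p = 0.194), 0.93 for Serpina6 (adjusted p = 0.397) and 0.60 for Serpinf1 (adjusted p = 0.633). The hepatocyte marker sum was 23234, 25999 and 14839 in the rapamycin animals and 17784, 17846 and 21078 in the placebo animals. Rapamycin animals 1 and 2 thus exceeded every placebo animal in hepatocyte markers and animal 3 lay below all of them, and the part of this difference in the result was not tested.

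Serpina6, Serpina1, Serpina4, Serpina3c and Serpina3n lie in 1 row of 18 serpin genes on chromosome 6, from Serpina10 to Serpina3n, with no other protein-coding gene in the span, and 12 of the 18 were measured. Close neighbours had unlike values. Serpina1, in the middle of the row, passed no test, whereas Serpina4, a few genes on, had the values above. Serpina3m, which follows Serpina4 and Serpina5, had a log2 difference from normal liver of -1.47 ± 0.30 in rapamycin foci (adjusted p = 0.0113), -2.09 ± 0.30 in placebo foci (adjusted p = 0.000549) and -2.96 ± 0.30 in AAF/PH liver (adjusted p = 1.19e-05), where its mean of 18.3 lay below every array median. Serpina3l, between Serpina3c and Serpina3n, was lower in AAF/PH liver (-2.05 ± 0.30, adjusted p = 0.000278) and not called in rapamycin foci (-0.41) or placebo foci (-0.71). Serpina3c, Serpina3l, Serpina3m and Serpina3n are close copies of each other, so signal shared between their probe sets cannot be told apart from their own.

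**Figure D3:**
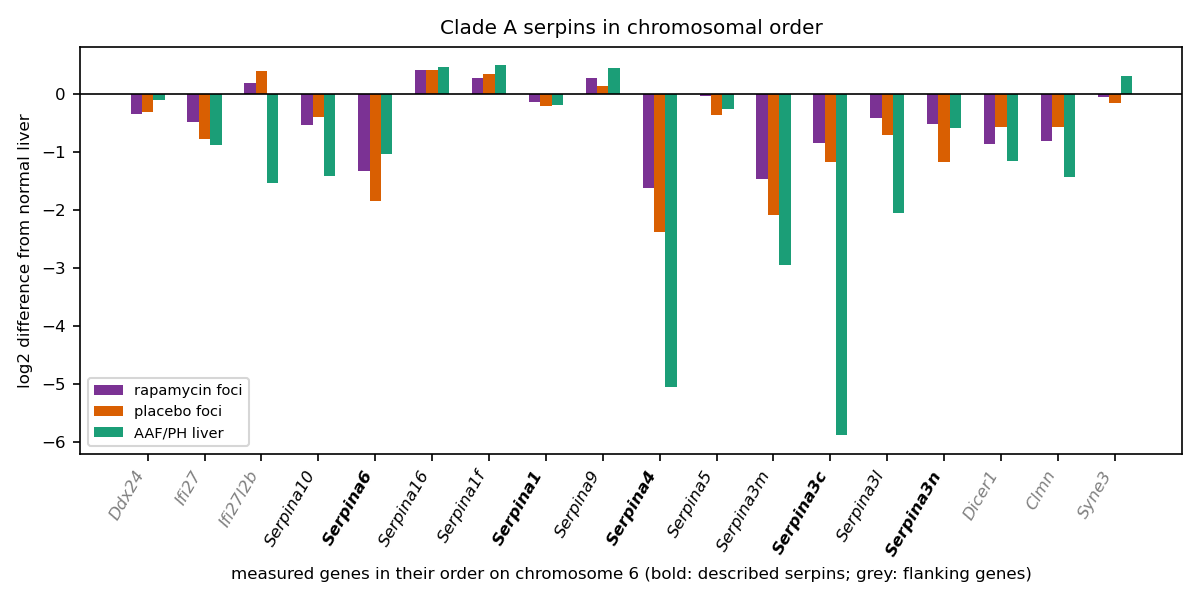
Log2 difference from normal liver (bars) of the measured clade A serpins and their flanking genes, in their order on chromosome 6, in rapamycin foci, placebo foci and AAF/PH liver. Serpina4 at -5.06 and Serpina3c at -5.88 in AAF/PH liver stand in the same row as Serpina1 at -0.19 and Serpina3n at -0.59, which did not pass. Serpina16, Serpina1f, Serpina9 and Serpina5 had group means below every array median, where a fall could not be seen.

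Beyond the 9, a chosen list held 7 other serpins that liver secretes, of which 5 were measured. Serpina3l, described above, was not on this list. In rapamycin foci 1 was lower (Serpina3m), in placebo foci 3 and in AAF/PH liver 4, and 0 were higher in any of the 3. Serpind1, heparin cofactor II, was lower in AAF/PH liver (-2.22 ± 0.35, adjusted p = 0.000457) and placebo foci (-1.23 ± 0.35, adjusted p = 0.0425), and Serping1, the C1 inhibitor, likewise (-1.43 ± 0.29 and -1.11 ± 0.29, adjusted p = 0.00265 and 0.0253). Over all 27 other serpins on the array, 1 was higher and 1 lower in rapamycin foci, 1 and 3 in placebo foci, and 4 and 5 in AAF/PH liver. The shares of all genes called higher and lower were 1.6% and 4.93%, 2.84% and 5.38%, and 7.54% and 12.5% in the same groups. Medians of the 27 were 0.07, 0.05 and 0.15, close to the 0.07, 0.04 and 0.12 over all genes. The serpin higher in all 3 was Serpinb1a, an intracellular inhibitor of neutrophil proteases, by 1.28 ± 0.24, 1.83 ± 0.24 and 1.83 ± 0.24 in rapamycin foci, placebo foci and AAF/PH liver (adjusted p = 0.00683, 0.000227 and 9.8e-05). Serpinh1, the collagen chaperone, and Serpine2, a tissue inhibitor of thrombin, were higher in AAF/PH liver, by 1.71 ± 0.27 and 1.11 ± 0.23 (adjusted p = 0.000472 and 0.00344).

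Proteases that these serpins check were described as a list that holds liver-made zymogens, plasminogen activators and enzymes of neutrophils and tissues. Of 12 measured, 0 were higher and 3 lower in rapamycin foci, 0 and 5 in placebo foci, and 2 and 6 in AAF/PH liver, with medians of -0.29, -0.34 and -0.62. In AAF/PH liver plasma prekallikrein (Klkb1) had a log2 difference of -3.02, factor XI (F11) of -2.32, plasminogen (Plg) of -1.74 and factor XII (F12) of -1.62 (adjusted p = 3.24e-06, 1.99e-05, 9.74e-05 and 0.000534). The 2 that were higher there were the plasminogen activators Plat (1.33, adjusted p = 0.00134) and Plau (adjusted p = 0.00137). The neutrophil enzymes Elane, the target of alpha-1-antitrypsin, and Ctsg did not pass in any group, with differences of 0.20 to 0.48. Of 23 other plasma proteins of hepatocytes, which include Plg and F2, 4 were lower in rapamycin foci, 14 in placebo foci and 19 in AAF/PH liver, and 0 higher. Of 9 genes of steroid and thyroid hormone handling, 3, 4 and 8 were lower in rapamycin foci, placebo foci and AAF/PH liver and 0 higher. The deiodinase Dio1 had differences of -1.29, -1.62 and -3.29 in those groups (adjusted p = 0.00918, 0.00104 and 1.09e-06), and the thyroid hormone receptor Thrb of -0.97, -1.17 and -1.81 (adjusted p = 0.0329, 0.00852 and 0.00016).

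Regulatory pathways of serpin genes are set beside them. Of 10 genes of growth hormone and STAT5 signalling, 8 were lower and 0 higher in each of rapamycin foci, placebo foci and AAF/PH liver, with medians of -1.42, -1.53 and -2.01. Igfals, the carrier subunit of circulating IGF1, had differences of -1.51, -1.88 and -4.02 in the 3 groups (adjusted p = 0.00419, 0.000374 and 3.29e-07), and Socs2, a feedback inhibitor, of -2.61, -2.41 and -2.53 (adjusted p = 0.000151, 0.000111 and 3.12e-05). Of 13 genes of interleukin 6 signalling and the acute phase, 0 passed in rapamycin foci, 0 were higher and 2 lower in placebo foci (Hp, adjusted p = 0.00474, and Crp, adjusted p = 0.0371), and 3 were higher and 3 lower in AAF/PH liver. Orm1, an acute phase protein, was higher there by 1.20 (adjusted p = 0.00096) and Cebpd, an acute phase transcription factor, by 0.94 (adjusted p = 0.0033), whereas ceruloplasmin (Cp) fell by 1.61 (adjusted p = 0.0012). Among 10 hepatocyte transcription factors 1 was higher (Nr0b2, a repressor of bile acid synthesis) and 4 lower in rapamycin foci, 0 and 4 in placebo foci, and 0 and 9 in AAF/PH liver. Foxa1 had differences of -1.32, -1.57 and -1.82 in those groups (adjusted p = 0.00156, 0.000156 and 1.84e-05). Of 12 genes of the secretory pathway and serpin folding, 2, 1 and 6 were lower and 0 higher, with Mcfd2, a cargo receptor subunit, at -1.15, -1.16 and -2.05 (adjusted p = 0.0379, 0.0278 and 0.000292).

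**Figure D4:**
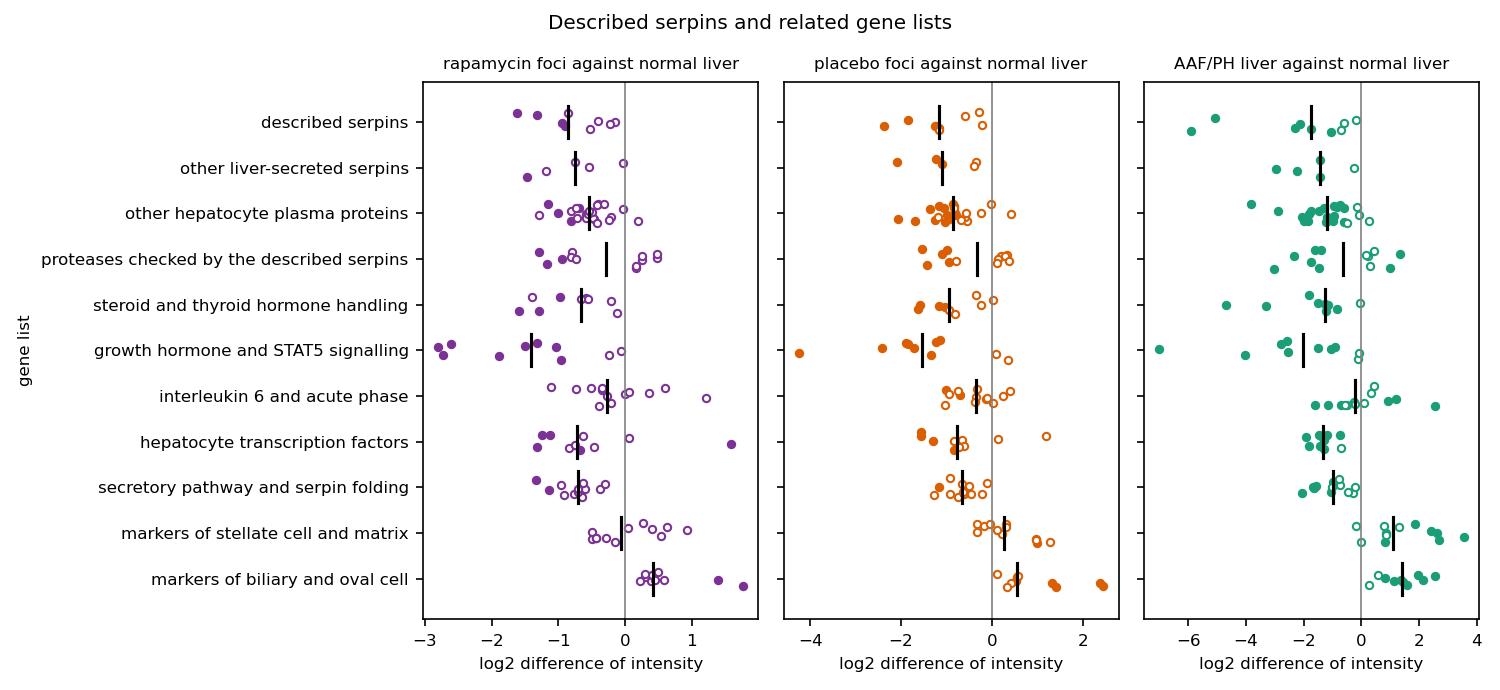
Log2 difference from normal liver of each gene (points; filled if past an adjusted p of 0.05) in the described serpins and 10 related lists, with the list median (bar), in rapamycin foci, placebo foci and AAF/PH liver; the scales differ between panels. The growth hormone list has medians of -1.42, -1.53 and -2.01, beside -0.85, -1.17 and -1.73 for the described serpins. Medians of the other liver-secreted serpins are -0.76, -1.11 and -1.43. Those of the other hepatocyte plasma proteins are -0.53, -0.85 and -1.18.

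Marker transcripts of other cell types were also summed and counted in the captured tissue. Biliary and oval cell markers summed to 247 to 471 in rapamycin foci, 455 to 726 in placebo foci, 502 to 735 in AAF/PH liver and 175 to 195 in normal liver, with 2, 4 and 8 of 10 higher than in normal liver and 0 lower. Stellate cell and matrix markers summed to 641 to 942 in rapamycin foci, 869 to 1207 in placebo foci, 1878 to 4828 in AAF/PH liver and 728 to 992 in normal liver, with 0, 2 and 7 of 12 higher and 0 lower. Hepatocyte markers were lower in 2, 7 and 6 of 10 in the same groups and higher in 0. The 10 hepatocyte markers had log2 differences in AAF/PH liver from -1.99 (Apoa1, adjusted p = 0.00016) to 0.90 (Tat, adjusted p = 0.145), with a median of -0.97 and Alb at -0.86 (adjusted p = 0.00162). Serpina3c at -5.88 and Serpina4 at -5.06 lay far below that range there. Serpinf1 at -2.29 and Serpinf2 at -2.13 also lay below it, close to Apoa1. With each animal scaled on its hepatocyte markers, a setting added after the data were seen, the differences in AAF/PH liver were -5.24 for Serpina3c, -4.41 for Serpina4, -1.65 for Serpinf1, -1.49 for Serpinf2 and -1.08 for Serpinc1, all still called, while the call of Serpina6 was lost (-0.40, adjusted p = 0.244). Under that scaling the median of all genes moved to 0.76 in AAF/PH liver, 0.74 in rapamycin foci and 0.95 in placebo foci, so the values are to be read against those medians. In foci Serpina4 stayed called, at -0.94 in rapamycin foci and -1.47 in placebo foci, as did Serpina6 in placebo foci at -0.94, while the calls of Serpina3n, Serpinc1 and Serpinf2 in placebo foci were lost (-0.26, -0.32 and -0.34), as were those of Serpinc1, Serpinf2 and Serpina6 in rapamycin foci (-0.23, -0.27 and -0.65). The part of the other cell types was not tested.

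Over the 12 animals the serpins fell into patterns that followed the groups. Log2 intensities of Serpina3c, Serpina4, Serpinc1, Serpinf1 and Serpinf2 correlated with each other at Pearson r of 0.76 to 0.98, and Serpina3n correlated at 0.89 with Serpina6 but at 0.18 with Serpina3c. These animals form 4 groups, so r also carries the differences between group means, and no p is given. The genes most like Serpina3n were the acute phase genes Hp, Fga and Fgg (r = 0.99, 0.97 and 0.96). Those most like Serpina4 were Ttpa, the vitamin E carrier, Igfals and Acsl1 (0.99 each), and those most like Serpina3c were Apof, Apoc1 and Fads1 (0.99, 0.97 and 0.97). Serpinc1 was most like Itih1, S1pr1 and C8b (0.99 each), and Serpinf2 most like Masp2, Plg and Cpq (0.99 each), Plg being the precursor of the protease that its product inhibits. Serpinf1 was most like Pipox, Alb and Tmem150a (0.99, 0.99 and 0.98), and Serpina6 most like Insig2, Nedd4l and Creb3l3 (0.96, 0.95 and 0.95). Serpina1 (Pigu, Map3k3 and Crp, 0.90, 0.89 and 0.89) and Serpina7 (Parp9, Irf9 and Slc8b1, 0.90, 0.89 and 0.87) had no gene above 0.90.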

How the data were processed

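Gene expression was measured on 14 arrays of 12 animals in 4 groups of 3, with the animal as the replicate. The authors deposited linear-scale intensity values. Per the submitters' processing notes, Partek 6.6 and RMA were involved, and their settings are not given in the sources used here. Planned tests had assumed log2 values. Since the values as deposited were linear, log2 was taken without a pseudocount before rapamycin animal 3 was reduced to the mean of its 3 arrays. Arrays have no read depth, and their number limits the precision. Of 28826 probe sets, 15209 had 1 gene symbol, 306 several and 13311 none. The probe set of highest mean was kept per gene, and 14471 of 14497 genes matched the RefSeq annotation of GRCr8, used for names and gene order only.

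Tests used limma 3.58.1 in R 4.3.3, with version 1.17.8 of the data.table package (lmFit and eBayes, 2-sided, 1 fit over the 4 groups, 8 residual and 6.38 prior degrees of freedom, Benjamini-Hochberg adjustment over all genes). Errors are standard errors of that fit. The fit was tested on simulated data, with independent noise of the same spread in every animal and changes planted in placebo foci only. Such data do not cover groups or arrays of unlike spread, such as those of rapamycin animal 3. The serpins, the gene lists and the tests were chosen with earlier results of these data known. Values of every animal are given for serpins called against normal liver, and each list names up to 4 genes of smallest p. Plat, Plau, Tat, Elane, Ctsg and Adgre1 were named after their values were seen. The labels number the animals of each group and do not say that equal numbers mark pairs. Deviations from the group mean were compared in 18 same-numbered pairs, and 7 correlated above 0.1 (range -0.681 to 0.381). Among placebo foci, AAF/PH liver and normal liver, animals 2 and 3 correlated at 0.177 to 0.349 and animals 1 at -0.206 to 0.023. Pairs with rapamycin foci ran from -0.681 to 0.381. The numbers were not used as pairs, and whether they mark anything shared was not tested. Alternatives were quantile normalization, median centring, array weights, the interquartile range as a covariate, a filter on dim genes, other ways to combine probe sets or the arrays of animal 3, fits on the compared groups alone, a replicate block, trended robust eBayes, each animal left out, and scaling on hepatocyte markers.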

Additional observations from a re-analysis of the deposited data

How the results depend on the processing

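Over 24 alternative settings, 1156 of 1290 values for single serpins kept their direction and side of the threshold, 69 lost a call, 34 gained one and 31 turned sign. The calls of Serpina3c, Serpina4, Serpinc1, Serpinf1 and Serpinf2 in AAF/PH liver and of Serpina4 and Serpina6 in placebo foci against normal liver held in every setting run. In rapamycin foci against normal liver the count of 4 was the least stable. It was 2 with array weights or the first array of animal 3 alone, and 1 with the interquartile range as a covariate, with only the compared groups, with trended robust eBayes or with hepatocyte marker scaling. With each animal left out it ran from 0 (without normal liver animal 1) to 4, and was 1 without normal liver animal 2 or 3, AAF/PH animal 1, placebo animal 1 or 2 or rapamycin animal 3, and 2 without AAF/PH animal 2. The count of 5 in placebo foci was 8 with array weights and 3 (2 lower, 1 higher) with hepatocyte marker scaling. Against AAF/PH liver the count of 3 in placebo foci was 6 with quantile normalization, array weights or the interquartile range (4 higher and 2 lower in each) and 5 with hepatocyte marker scaling, and ran from 3 to 5 over left-out animals, with 5 without rapamycin animal 3. The array weights stopped before convergence. The share of all genes called under each setting is not given here, so these counts do not set the serpins apart from other genes. The cause of these moves was not tested. A fit with the replicate block kept 5 calls in placebo foci against normal liver and left 1 in rapamycin foci. It is a different model of the same values, and the labels do not say that the numbers mark pairs.

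The filter on dim genes left no value for Serpina7. Signs turned mainly for small differences. With hepatocyte marker scaling, a setting chosen after seeing the data, Serpina1 stood at 0.69 in placebo foci (adjusted p = 0.0274), 0.53 in rapamycin foci and 0.46 in AAF/PH liver against normal liver, 0.23 in placebo foci against AAF/PH liver and -0.17 in rapamycin against placebo foci. Serpina7 stood at 0.63 and 0.45 in placebo and rapamycin foci against normal liver and at -0.18 between the foci, Serpinf1 at 0.31, 0.26 and -0.050 in the same order, and Serpina3n at 0.15 in rapamycin foci and 0.056 in AAF/PH liver. With the interquartile range as a covariate, Serpina7 and Serpinf1 in rapamycin foci against normal liver were 0.18 and 0.14. Quantile normalization gave -4e-04 and -0.036 for Serpina1 and Serpina3n in rapamycin foci against AAF/PH liver and -0.012 for Serpina7 between the foci. Median centring gave -0.0061 for that last value and 0.057 for Serpina1 in placebo foci against AAF/PH liver. Over left-out animals, Serpina7 ran from -0.64 to 0.048 in placebo foci and from -0.58 to 0.039 in rapamycin foci against normal liver, and from -0.30 to 0.42 between the foci. In placebo foci against AAF/PH liver Serpina1 ran from -0.095 to 0.051. In rapamycin foci against AAF/PH liver Serpina1 ran from -0.027 to 0.12, Serpina3n from -0.082 to 0.23 and Serpina6 from -0.66 to 0.12. Serpinf1 between the foci ran from -0.036 to 0.60.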

Other observations

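Macrophage, lymphocyte, endothelial and neutrophil markers were also counted against normal liver. Of 10 macrophage markers 3 were lower and 0 higher in rapamycin foci, 1 and 0 in placebo foci, and 1 and 2 in AAF/PH liver. The median log2 differences of this list were -0.50, -0.04 and 0.36. Its member Adgre1 was higher in AAF/PH liver (0.72, adjusted p = 0.0139) and not called in rapamycin foci (-0.35) or placebo foci (0.06). Marco, a scavenger receptor of resident liver macrophages, was lower in rapamycin foci (log2 difference -1.37, adjusted p = 0.0042) and placebo foci (-1.82, adjusted p = 0.000224), while its value in AAF/PH liver was 0.17 (adjusted p = 0.616). Of 6 endothelial markers 1 was lower in each of the 3 groups, Kdr, a receptor of vascular endothelial growth factor, with -0.96 in rapamycin foci, -0.87 in placebo foci and -1.27 in AAF/PH liver (adjusted p = 0.0213, 0.0266 and 0.00119). Of 8 lymphocyte markers 1 was higher in rapamycin foci, 0 in placebo foci and 1 in AAF/PH liver, and 0 of 7 neutrophil markers passed in any of them.

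Of the 23 listed plasma proteins of hepatocytes outside the serpin family, Apoa2 at -3.83 (adjusted p = 3.03e-05) and Hrg, a histidine-rich plasma glycoprotein, at -2.89 (adjusted p = 0.00014) had the most negative log2 differences in AAF/PH liver. Outside that list, the apolipoprotein genes Apof at -4.48 (adjusted p = 5.57e-07) and Apoc1 at -3.92 (adjusted p = 3.91e-07) lay nearer to Serpina3c and Serpina4 than Apoa2 did. These 4 genes were named after their values were seen. Apoa1 had 0.20 in rapamycin foci, 0.41 in placebo foci and -1.99 in AAF/PH liver, with a call in AAF/PH liver (adjusted p = 0.00016).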
